A study of Mus musculus with 12 samples.

Results

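The replication-independent histone variants measured here are 8 genes of the 24259 gene symbols in the deposited FPKM table, taken by symbol as variant histones that lie outside the *Hist* gene clusters. They are *H2afx* (H2A.X), *H2afz* and *H2afv* (both encoding H2A.Z), *H2afy* (macroH2A1), *H3f3a* and *H3f3b* (both encoding H3.3), the oocyte linker histone gene *H1foo* and the linker histone gene *H1f0* (H1.0). Values came from 12 libraries of RNA from fully grown oocytes at the germinal vesicle (GV) stage, with 3 libraries in each of 4 groups. The WT and *Lsm14b*-KO mice were 3 weeks old, were kept on a C57BL/6J background and were primed with 5 IU of PMSG, with oocytes collected 46 h later. *Lsm14b*-KO means homozygosity for Lsm14b tm1a(KOMP)Mbp, a reporter-tagged insertion carried by every cell of the animal, the follicle cells around the oocyte included. *Lsm14b* encodes an RNA-binding protein of the LSM14 family. Oocytes of both genotypes were held in cycloheximide, which stalls ribosomes on mRNA, and about 1500 of them were lysed for a sucrose gradient. Fractions 1 to 10 formed the RNP pool (mRNA in light ribonucleoprotein particles) and fractions 11 to 28 the polysome pool (mRNA on several ribosomes). The question was which transcripts are loaded on polysomes in oocytes with and without LSM14B, and it is followed here for the variant histones.

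Bulk histones are made during S phase from intronless genes whose mRNAs end in a stem-loop instead of a poly(A) tail. Replication-independent variants are made outside S phase, mostly from genes with introns and polyadenylated mRNAs, which is why a cell that no longer replicates its DNA, such as a growing oocyte, can still supply them. H3.3 replaces H3 in transcribed chromatin and is laid down on sperm DNA after fertilization, H2A.Z marks promoters, H2A.X is phosphorylated around DNA double-strand breaks, macroH2A is linked to silent chromatin, H1FOO is the linker histone of oocytes and early embryos, and H1.0 is typical of differentiated cells.

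Some of these transcripts have sequence features that matter for the values below. All positions are on GRCm38, the same assembly as the mm10 of the authors' alignment, with transcripts of GENCODE M21. *H3f3a* (chromosome 1, 180800832 to 180813943, minus strand) and *H3f3b* (chromosome 11, 116021912 to 116027962, minus strand) encode 136 residues each, initiator methionine included, with 0 differences, although 95 of their 408 coding bases differ. Their first 90 coding bases are shown because they let reads of 1 gene be told from those of the other; capitals mark the 20 bases that differ between them, and the stretches lie at chr1:180811837-180811926 and chr11:116023920-116024009.
*H3f3a*: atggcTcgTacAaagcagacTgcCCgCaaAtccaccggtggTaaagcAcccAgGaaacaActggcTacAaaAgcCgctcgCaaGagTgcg
*H3f3b*: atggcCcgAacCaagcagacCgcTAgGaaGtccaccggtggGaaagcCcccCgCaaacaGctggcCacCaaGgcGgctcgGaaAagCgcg

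*H2afz* (chromosome 3, 137864487 to 137866922, plus strand) and *H2afv* (chromosome 11, 6427229 to 6444443, minus strand) form a similar pair. Of 128 residues 3 differ, and of 384 coding bases 80 differ. Their first 90 coding bases, with the 19 differing bases in capitals, cross an intron and so span chr3:137864694-137865528 and chr11:6433829-6444339.
*H2afz*: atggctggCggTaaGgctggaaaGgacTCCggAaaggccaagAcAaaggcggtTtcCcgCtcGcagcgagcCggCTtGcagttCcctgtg
*H2afv*: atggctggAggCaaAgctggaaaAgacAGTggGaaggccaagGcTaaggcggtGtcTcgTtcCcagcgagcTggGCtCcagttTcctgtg

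*H2afx* (chromosome 9, 44334694 to 44336077, plus strand) is a single-exon gene, which sets it apart from all the other members except *H1f0*. Its last 60 coding bases, at chr9:44335131-44335190 on the plus strand, carry in capitals the codon of the serine that is phosphorylated in H2A.X at sites of DNA damage (residue 139 without the initiator methionine, with 3 residues after it).
*H2afx*, coding end: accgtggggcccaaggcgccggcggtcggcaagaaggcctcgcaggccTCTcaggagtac

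The same transcript also holds a sequence of the kind that ends replication-dependent histone mRNAs. The 16-base run found most often after the stop codon of transcripts from the *Hist* clusters and able to pair with itself over 6 bases was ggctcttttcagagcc, present without mismatch in 26 of 67 protein-coding *Hist* genes. A search of the sense strand after the stop codon, for runs that pair with themselves and have at most 3 mismatches to it, found 44 of the 67 *Hist* genes (65.7%), 51 of all 21877 protein-coding genes (0.233%) and 1 of the 8 members, *H2afx*. Its run (capitals) starts 50 bases after the last coding base shown above, a distance that includes the stop codon. It has 3 mismatches and leaves 822 bases of annotated transcript after it, and the stretch shown lies at chr9:44335235-44335260. The allowance of 3 mismatches was set after the sequence of *H2afx* was seen. A match describes letters and was not tested as a processing site.
*H2afx*, stem-loop match: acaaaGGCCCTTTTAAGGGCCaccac

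The depth, estimated from the smallest steps between low FPKM values, was 4.69 to 7.97 M fragments (M, mega) per library, and 10566 to 12720 genes had an FPKM above 0. *Lsm14b* itself was at 27.4 to 34.6 FPKM in the WT RNP libraries and at 11.3 to 15.3 FPKM in WT polysomes, and no KO library exceeded 0.893 FPKM. All 10 oocyte markers looked up were detected in every group. The summed level of 10 markers of granulosa and cumulus cells, the somatic cells of the follicle, was 31.3 to 35.3 FPKM in WT RNP, 42.7 to 65.5 in KO RNP, 27.2 to 75.5 in WT polysomes and 81.1 to 103 in KO polysomes, against 4584 FPKM or more for the oocyte markers. Markers of theca and stroma summed to at most 2.38 FPKM and those of blood and immune cells to at most 8.71 FPKM. The KO polysome library of replicate 2 stood apart, with 34.7% of its summed FPKM in 10 genes and 24.5% in *Mir300*. In such bulk RNA, fewer cells of a type and less RNA per cell cannot be told apart. Nothing in the labels says that the replicates came from separate animals or gradients, so p-values measure the spread between these libraries, which may be technical.

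The members covered 3 orders of magnitude in level. FPKM is meant to correct for transcript length, but the lengths used are not given, so comparisons between genes are approximate. By mean FPKM over the 12 libraries, *H1foo* stood at 3130 and ranked 7 of all 24259 genes. *H3f3b* followed at 883 (rank 64), *H3f3a* at 747 (rank 84) and *H2afx* at 296 (rank 234). The remaining members were far lower, with *H1f0* at 21.7 (rank 3293), *H2afz* at 5.89 (rank 6324), *H2afv* at 4.37 (rank 6995) and *H2afy* at 2.51 FPKM (rank 8271). Thus *H1foo* made up 98.4% to 99.9% of the summed level of the linker histone members in every library. Of the summed level of the H2A members (*H2afx*, *H2afz*, *H2afv* and *H2afy*), *H2afx* made up 98.1% ± 0.81 in WT RNP and 97.0% ± 1.96 in WT polysomes. Its share was lower in the KO, with 91.5% ± 2.04 in RNP and 85.0% ± 5.00 in polysomes (SD, n = 3). These shares leave out *H2afj*, an H2A variant gene that is not a member. The mean of *H2afj* was 58.4 FPKM in WT RNP, 82.5 in KO RNP, 38.7 in WT polysomes and 29.7 in KO polysomes. The 8 genes together held 6080 ± 145 FPKM in WT RNP, 5104 ± 121 in KO RNP, 5007 ± 231 in WT polysomes and 4174 ± 119 in KO polysomes (SD, n = 3), with no overlap between genotypes in either pool. *H1foo* alone had means of 3327, 2779, 3440 and 2974 FPKM in these groups. The sum therefore mostly follows the abundant genes and does not stand for each member.

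**Figure D1:**
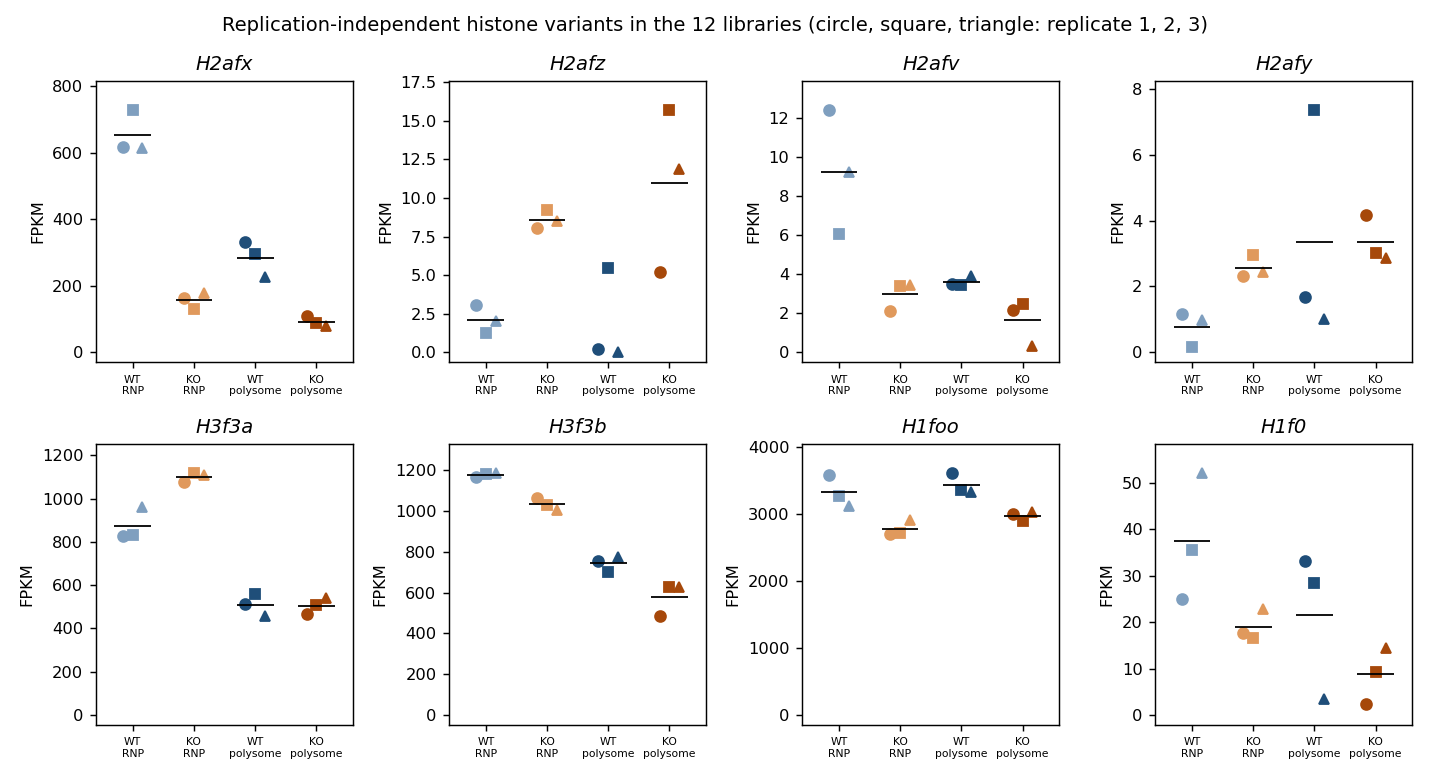
FPKM (linear axis, 1 panel per gene with its own range) of the 8 histone variant genes in the 12 libraries, grouped by genotype and pool; symbols mark replicates and black lines the mean of 3 libraries, left out for *H2afz* in WT polysomes because 1 library is listed at 0. *H2afx* lies between 614 and 728 FPKM in WT RNP and between 129 and 177 in KO RNP, while *H1foo* stays between 2707 and 3620 in every library.

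In the RNP pool, the genotypes differed in 7 of the 8 members, with an adjusted p under 0.05 (limma on log2(FPKM + 1), Benjamini-Hochberg over 9931 genes), where 20.7% of all genes tested did. *H2afz* and *H3f3a* were higher in the KO, and *H2afx*, *H2afv*, *H3f3b*, *H1foo* and *H1f0* were lower. The median change was -0.22 over the members and 0.05 over all genes tested on this scale. Since a pseudocount of 1 is added, the change of weakly expressed genes is understated.

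*H2afx* had the largest change on this scale. With a pseudocount of 0.1, *H2afz* matched it in size, at 2.07 against -2.07. *H2afx* was listed at 616, 728 and 614 FPKM in the WT RNP libraries and at 164, 129 and 177 FPKM in the KO RNP libraries. The KO mean was 24.0% of the WT mean, and the highest KO library lay far below the lowest WT library. The log2 change was -2.06 (SE 0.13, adjusted p = 2.50e-05 from limma), and it stayed between -2.17 and -1.93 in 14 alternative settings, each of which kept the call. An annotated gene on the opposite strand, *Gm44335*, overlaps *H2afx*, and the strand used in counting is not given in the sources used here.

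The H2A.Z genes moved in opposite directions. *H2afz* was listed at 3.03, 1.24 and 2.02 FPKM in WT RNP and at 8.05, 9.23 and 8.51 FPKM in KO RNP, a log2 change of 1.67 (SE 0.34, adjusted p = 0.00840 from limma) that was called in 14 of 14 alternatives. These values correspond to an estimated 6.92 to 18.8 fragments per WT library and 46.4 to 51.8 per KO library. *H2afv* was listed at 12.4, 6.07 and 9.23 FPKM in WT RNP and at 2.11, 3.41 and 3.43 in KO RNP, with no overlap. Its log2 change of -1.33 (SE 0.35, adjusted p = 0.0252 from limma) was called in 7 of 14 alternatives. With a library left out it was called only without WT replicate 2, and otherwise the adjusted p lay between 0.0506 and 0.0925 (limma). Of the 10 granulosa and cumulus markers, 4 were tested in RNP and 1 was called. This was *Inha*, which encodes an inhibin subunit and was higher in the KO (log2 change 2.79, adjusted p = 0.00238 from limma). *Fshr*, *Cyp19a1* and *Nr5a2* were not called (adjusted p = 0.0704, 0.269 and 0.819 from limma). Whether somatic transcripts had a part in the rise of *H2afz* was not tested. *H2afz* has 2 annotated pseudogenes with at least 95% identity to its coding sequence over 150 bases, so its values may include their reads.

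*H2afy*, on chromosome 13 (56073619 to 56136361, minus strand), encodes macroH2A1 and was the 1 member not called in RNP. Its values of 1.16, 0.170 and 0.970 FPKM in WT and 2.32, 2.94 and 2.44 FPKM in the KO did not overlap, but rest on an estimated 2.01 to 15.3 fragments per WT library. Its log2 change was 1.06 (SE 0.39, adjusted p = 0.0889 from limma), and a p that misses the threshold does not show that the genotypes were alike.

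The H3.3 genes, both among the most abundant transcripts, moved apart in RNP by small amounts. *H3f3a* was listed at 828, 832 and 960 FPKM in WT and at 1078, 1120 and 1110 in the KO, a log2 change of 0.34 (SE 0.07, adjusted p = 0.0114 from limma). That call was kept in 13 of 14 alternatives and lost without the intensity trend (adjusted p = 0.203 from limma). *H3f3b* was listed at 1167, 1179 and 1187 FPKM in WT and at 1063, 1029 and 1006 in the KO. The KO mean was 87.7% of the WT mean, with no overlap, and the log2 change was -0.19 (SE 0.06, adjusted p = 0.0425 from limma). This call was kept in 4 of 14 alternatives and in 0 of the 6 that left out a library, where the adjusted p lay between 0.0614 and 0.131.

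Both linker histone genes were lower in KO RNP. *H1foo* (chromosome 6, 115944938 to 115950236, plus strand) was listed at 3583, 3273 and 3124 FPKM in WT and at 2707, 2718 and 2913 in the KO. Its KO mean was 83.5% of the WT mean (log2 change -0.26, SE 0.06, adjusted p = 0.0177 from limma), and the call was kept in 9 of 14 alternatives and lost without KO replicate 1 or 2. *H1f0* (chromosome 15, 79028450 to 79030504, plus strand) was listed at 24.9, 35.5 and 52.2 FPKM in WT and at 17.7, 16.5 and 22.8 in the KO, so the groups came close without overlapping. Its log2 change of -0.90 (SE 0.27, adjusted p = 0.0447 from limma) was kept in 4 of 14 alternatives, and of the fits without 1 library only that without WT replicate 1 kept it (without WT replicate 3 the log2 change was -0.63). With each library left out in turn, the number of members called in RNP ranged from 3 to 5, and it was 3 without KO replicate 1 or 2. Calls over all genes also fell there, from 2057 of 9931 tested. They were 1255 of 9551 without KO replicate 1 and 1259 of 9560 without KO replicate 2.

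In the polysome pool, 1 of the 8 members was called, *H2afx*, where 10.4% of 9536 genes tested were called. The median change was -0.29 over the members and 0.10 over all genes. WT polysomes held *H2afx* at 331, 296 and 225 FPKM, and KO polysomes at 109, 87.8 and 79.7 FPKM. The KO mean was 32.4% of the WT mean, against 24.0% in RNP, and the call held in 14 of 14 alternatives, with log2 changes from -1.77 to -1.49. These included the fit without KO replicate 2, the library with 24.5% of its summed FPKM in *Mir300*.

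Among the other members, *H2afv*, *H3f3b* and *H1foo* had KO polysome values below all WT values without being called. The share of all genes without overlap was not counted in any comparison. Full separation of 3 libraries from 3 gives p = 0.1 in the exact two-sided permutation test, so no difference is read from a lack of overlap alone. For *H3f3b* the WT values were 756, 702 and 773 FPKM and the KO values 485, 625 and 625 FPKM (log2 change -0.37, SE 0.12, adjusted p = 0.0934 from limma). *H1foo* was listed at 3620, 3360 and 3340 FPKM in WT and at 2997, 2897 and 3029 in the KO (log2 change -0.21, SE 0.08, adjusted p = 0.120 from limma). After quantile normalization both were called, with log2 changes of -0.47 and -0.58. *H2afv* was listed at 3.47, 3.43 and 3.90 FPKM in WT and at 2.14, 2.49 and 0.295 in the KO (log2 change -0.93, SE 0.51, adjusted p = 0.290 from limma).

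The remaining members overlapped between genotypes in polysomes. *H2afz* had 0.199, 5.49 and 0 FPKM in the WT libraries and 5.23, 15.7 and 11.9 FPKM in the KO libraries, so that WT replicate 2 alone reached the lowest KO library. Its log2 change was 2.48 (SE 0.76, adjusted p = 0.0743 from limma), and without WT replicate 2 it was 3.33 and called (adjusted p = 0.0157 from limma). *H2afy* also had its highest WT value in replicate 2, with 1.69, 7.36 and 1.01 FPKM in WT and 4.18, 3.02 and 2.85 in the KO (log2 change 0.28, SE 0.59, adjusted p = 0.810 from limma). Of the 10 granulosa and cumulus markers, 7 were tested in polysomes, and 3 were called higher and 0 lower in the KO. The log2 changes were 3.27 for *Inha*, 2.94 for *Inhba* and 2.22 for *Fshr* (adjusted p = 0.0364, 0.0105 and 0.0224 from limma). *Cyp19a1*, *Hsd17b1*, *Nr5a2* and *Kitl* were not called. Any part of somatic transcripts in the polysome values of *H2afz* was not tested.

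*H3f3a* was close between genotypes in polysomes, with 512, 557 and 457 FPKM in WT and 465, 510 and 540 in the KO (log2 change -0.01, SE 0.12, adjusted p = 0.970 from limma). *H1f0* scattered widely, with 33.1, 28.4 and 3.33 FPKM in WT and 2.41, 9.33 and 14.5 in the KO (log2 change -0.996, SE 0.84, adjusted p = 0.503 from limma). WT replicate 3 lay within the KO range, and without it the log2 change of *H1f0* was -1.95 (adjusted p = 0.0893 from limma).

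**Figure D2:**
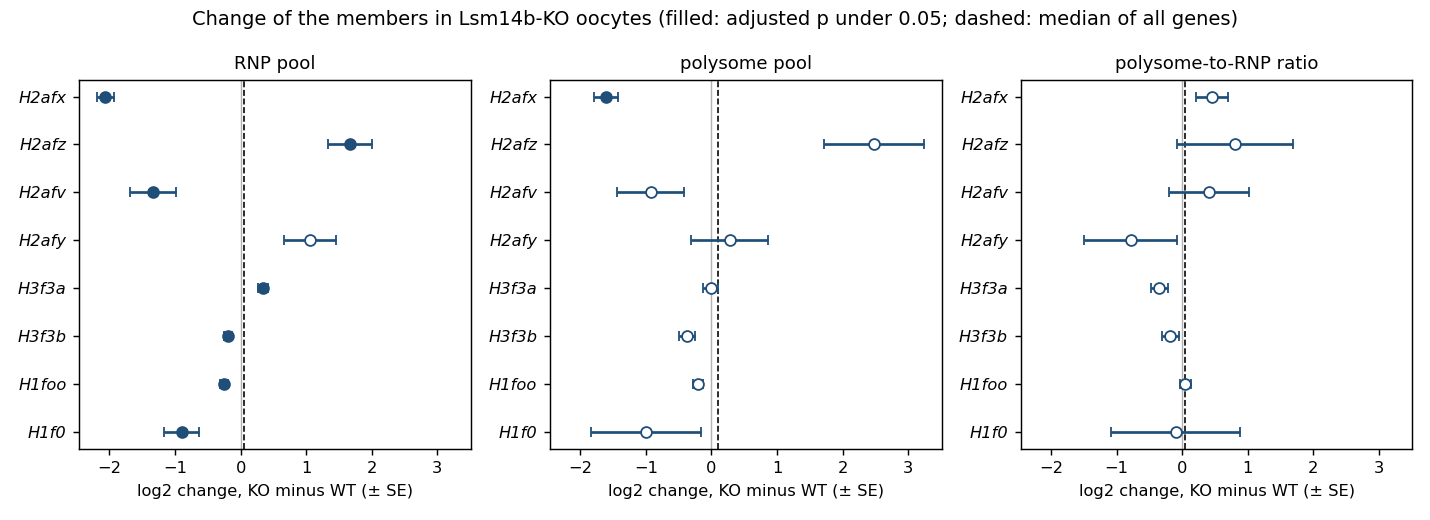
Log2 change of FPKM + 1, KO minus WT, with its standard error, for the 8 genes in the RNP pool, the polysome pool and the polysome-to-RNP ratio; filled symbols mark an adjusted p under 0.05 and dashed lines the median of all genes tested. *H2afx* sits at -2.06 in RNP and -1.61 in polysomes, and no member is filled in the ratio.

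Within each pair of sister genes, the order of levels in RNP differed between the genotypes. Which gene of a pair is listed higher also depends on the transcript lengths behind the FPKM, which are not given. The ratio of *H3f3a* to *H3f3b* FPKM was 0.741 ± 0.0587 in WT RNP and 1.07 ± 0.0478 in KO RNP, and 0.687 ± 0.101 in WT polysomes and 0.879 ± 0.0730 in KO polysomes (SD, n = 3). The highest WT ratio was 0.809 in RNP and 0.793 in polysomes, and the lowest KO ratio was 1.01 and 0.815. *H3f3b* was therefore above *H3f3a* in every WT library and below it in every KO RNP library, whereas in KO polysomes it was above in each library and the ranges of both genes overlapped. In RNP the sum of both genes, the mRNA that encodes H3.3 protein, changed less than either gene. In polysomes it changed more than *H3f3a*, whose KO mean was 99.2% of the WT mean, and less than *H3f3b*, at 77.8%. The sum was 2051 ± 83.6 FPKM in WT RNP and 2135 ± 17.2 in KO RNP, with overlap, and 1252 ± 19.7 in WT polysomes and 1083 ± 116 in KO polysomes, without (SD, n = 3).

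Each of these *H3f3a* values is uncertain in one respect. The gene has 15 annotated pseudogenes with at least 95% identity over 150 coding bases, *H3f3b* has 1 and the other members except *H2afz* have 0, and *H3f3a* also overlaps *Gm17275* and *H3f3aos* on the opposite strand. The share of reads that came from such copies was not tested.

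The H2A.Z genes crossed more widely. *H2afv* was above *H2afz* in every WT RNP library, and *H2afz* was above *H2afv* in every KO library of both pools. In WT polysomes, *H2afv* lay between 3.43 and 3.90 FPKM and *H2afz* between 0 and 5.49 FPKM, so the order there depended on the library.

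**Figure D3:**
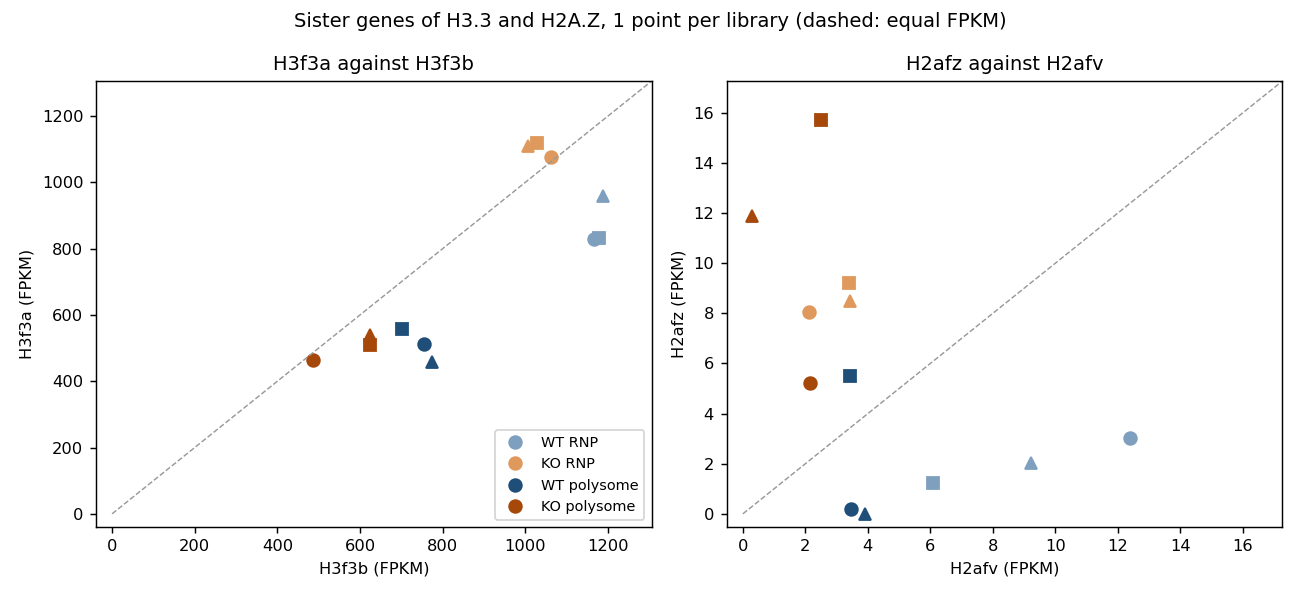
FPKM of *H3f3a* against *H3f3b* and of *H2afz* against *H2afv* (linear axes), with 1 point per library, colors for genotype and pool and symbols for the replicate number as in the plot of values by library; the dashed line marks equal levels. KO RNP points lie above the line in both panels, and WT RNP points lie below it.

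The polysome and RNP pools were then compared within each genotype, with the same libraries as above. FPKM is scaled within each library. A difference between pools is thus one of level relative to the other transcripts of the pool, not of the share of a transcript that is on ribosomes. In WT, *H2afx*, *H3f3a* and *H3f3b* were lower in polysomes than in RNP, 3 of 8 members, where 14.7% of 9574 genes differed. The polysome mean was 43.5% of the RNP mean for *H2afx* (log2 difference -1.21, SE 0.15, adjusted p = 0.00155 from limma), 58.3% for *H3f3a* (-0.78, SE 0.11, adjusted p = 0.00251 from limma) and 63.1% for *H3f3b* (-0.66, SE 0.08, adjusted p = 0.00135 from limma). Without the intensity trend, *H3f3a* and *H3f3b* were not called.

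In the KO, the called members were again *H2afx*, *H3f3a* and *H3f3b*, all lower in polysomes, where 29.2% of 9851 genes differed. The polysome mean was 58.8% of the RNP mean for *H2afx* (log2 difference -0.76, SE 0.16, adjusted p = 0.00696 from limma), 45.8% for *H3f3a* (-1.13, SE 0.08, adjusted p = 1.74e-05 from limma) and 56.0% for *H3f3b* (-0.84, SE 0.11, adjusted p = 0.000410 from limma). These calls held in 14 of 14 alternatives. *H1foo* had polysome means of 103% of RNP in WT (adjusted p = 0.707 from limma) and 107% in the KO (adjusted p = 0.260 from limma), with ranges that overlapped. As a result the level of *H1foo* over that of H3.3 mRNA was 1.63 ± 0.170 in WT RNP and 2.75 ± 0.0960 in WT polysomes, and 1.30 ± 0.0648 in KO RNP and 2.77 ± 0.334 in KO polysomes (SD, n = 3).

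*H1f0* was lower in KO polysomes than in KO RNP without overlap and was not called (log2 difference -1.28, SE 0.49, adjusted p = 0.0806 from limma). It was called in 2 of 14 alternatives, 1 of them without KO polysome replicate 3 (-1.74, adjusted p = 0.0217 from limma). For *H2afv* the WT pools did not overlap, with a log2 difference of -1.11 (SE 0.42, adjusted p = 0.115 from limma). *H2afz* and *H2afy* overlapped between pools in both genotypes.

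**Figure D4:**
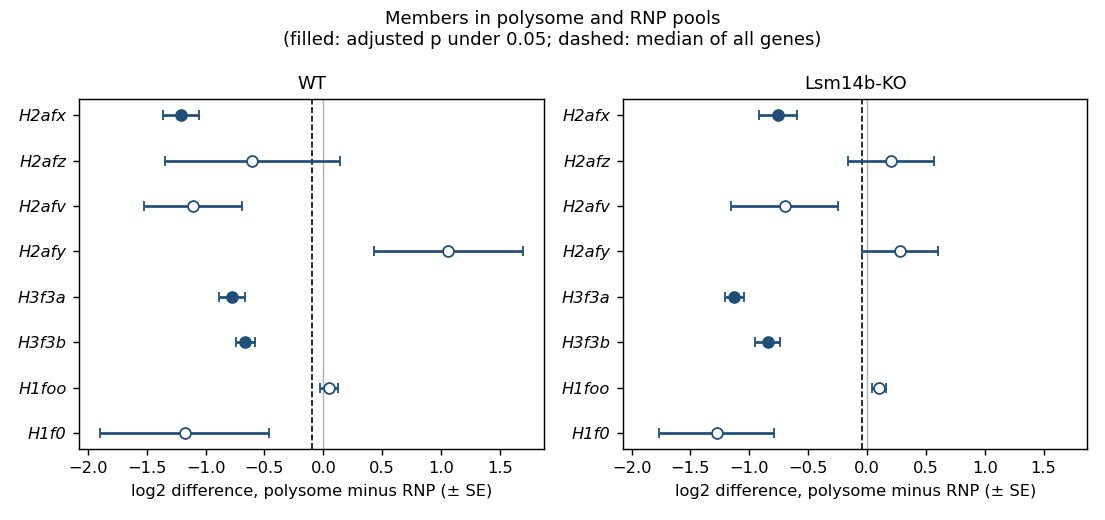
Log2 difference of FPKM + 1 between the polysome and RNP pools, with its standard error, for the 8 genes in WT and in *Lsm14b*-KO oocytes; filled symbols mark an adjusted p under 0.05 and dashed lines the median of all genes tested. *H2afx*, *H3f3a* and *H3f3b* are filled on the side of lower polysome values in both panels, and *H1foo* lies within 0.10 of 0.

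Whether the genotype changed the polysome-to-RNP ratio was tested by an interaction term in a fit to all 12 libraries. With limma, 0 of the 8 members were called, and 1 had an unadjusted p under 0.05, where 0.237% of 10949 genes were called. That member was *H3f3a*, with a log2 change of -0.35 (SE 0.13, unadjusted p = 0.0206, adjusted p = 0.340 from limma). *H2afx* had a ratio change of 0.45 (SE 0.24, adjusted p = 0.513 from limma), between 0.30 and 0.60 over 21 alternatives, none of which called it. For *H1foo* the change was 0.05 (SE 0.09, adjusted p = 0.891 from limma). The standard errors of *H2afz*, *H2afv*, *H2afy* and *H1f0* were 0.61 or more. A call needed a change several times its standard error. *Rnf8*, a gene described below, only just passed at 0.80 (SE 0.15, adjusted p = 0.0490 from limma). *Anp32e*, also described below, was not called at 2.62 (SE 0.64, adjusted p = 0.134 from limma). Smaller changes in the ratio could thus go uncalled for every member, *H2afx* and *H3f3a* included.

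For the 6 members that averaged 5 FPKM or more, thus not for *H2afv* and *H2afy*, the genes whose levels followed them most closely were searched among 6680 genes above the same limit, by Pearson correlation of log2(FPKM + 1) over the 12 libraries. These libraries fall into 4 groups that share genotype and pool, so the values describe the shape over the groups. The highest values were 0.990 for *Parp12*, 0.986 for *Bcl2l10* and 0.979 for *AA619741* with *H2afx*. With *H3f3a* they were 0.989 for *Trim61*, 0.978 for *Rdh11* and 0.977 for *Zfp57*, and with *H3f3b* 0.986 for *Tcl1*, 0.986 for *Obox2* and 0.981 for *Bmp5*. For *H1foo* they were lower, with 0.930 for *Echdc3*, 0.917 for *Rpl14* and 0.915 for *Scoc*. *H1f0* was followed by *Ctcf* at 0.938, *Tspan5* at 0.936 and *Ptpdc1* at 0.920, and *H2afz* by *Klhl21* at 0.933, *Tceb3* at 0.931 and *Usp22* at 0.922. Between members, *H3f3a* and *H3f3b* had an r of 0.84, *H2afx* and *H3f3b* 0.68, and *H2afz* and *H1foo* -0.73.

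Factors that deposit, read or remove these histones, or process histone mRNA, were described as lists beside the members. Their counts stand against 20.7% of all genes called in RNP and 10.4% in polysomes, and their medians against 0.05 and 0.10 on the log2 scale. With 4 to 12 genes tested per list, nothing particular to a list is read from its count. Of 11 other variant histones outside the *Hist* clusters, 10 were in the table, 4 were tested and 1 was called lower in each pool (median change -0.56 in RNP and -0.25 in polysomes). *Cenpa*, the histone H3 variant of centromeres, was listed at 73.4, 65.8 and 62.5 FPKM in WT RNP and at 19.1, 11.4 and 13.3 in KO RNP. Its log2 change was -2.16 in RNP (SE 0.21, adjusted p = 0.000220 from limma), called in 14 of 14 alternatives, and -1.39 in polysomes (SE 0.25, adjusted p = 0.0126 from limma), called in 13 of 14. It lost the polysome call without KO replicate 2, at an adjusted p of 0.0504 from limma.

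Of the 10 genes for H3.3 deposition, 0 were called in polysomes by limma (2 at an unadjusted p under 0.05) and 1 in RNP, with median changes of 0.28 and 0.18. The called gene was *Dek*, an H3.3 chaperone, with 13.1, 36.9 and 31.7 FPKM in WT RNP and 10.2, 9.47 and 3.94 in KO RNP (log2 change -1.64, SE 0.44, adjusted p = 0.0269 from limma, called in 9 of 14 alternatives). Of the genes for H2A.Z exchange and removal, 0 of 12 were called in polysomes by limma (0 at an unadjusted p under 0.05), with a median of 0.05, and 2 of 11 were lower in RNP, with a median of -0.25. *Anp32e*, which takes H2A.Z off nucleosomes, was listed at 6.51, 15.3 and 14.5 FPKM in WT RNP and at 2.27, 2.45 and 0.393 in KO RNP (log2 change -2.30, SE 0.47, adjusted p = 0.00875 from limma). *Yeats4*, a subunit of the complexes that insert H2A.Z, was listed at 87.7, 114 and 109 FPKM in WT RNP and at 59.5, 44.9 and 59.5 in KO RNP (log2 change -0.91, SE 0.16, adjusted p = 0.00476 from limma). Both calls were kept in 14 of 14 alternatives.

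Among 15 genes for the phosphorylation of H2A.X and its readers, 1 of 11 was called higher in polysomes and 3 of 10 lower in RNP, with median changes of -0.07 and -0.25. *Rnf8*, a ubiquitin ligase that acts at phosphorylated H2A.X, was listed at 278, 274 and 308 FPKM in WT RNP and at 143, 130 and 132 in KO RNP (log2 change -1.08, SE 0.10, adjusted p = 0.000141 from limma). In polysomes its values were 227, 266 and 225 FPKM in WT and 207, 195 and 189 in the KO (log2 change -0.27, SE 0.13, adjusted p = 0.205 from limma). *Ppm1d*, a phosphatase of H2A.X, was lower in KO RNP (log2 change -1.23, SE 0.36, adjusted p = 0.0387 from limma, called in 6 of 14 alternatives). *Eya1*, which removes a phosphate from a tyrosine of H2A.X, was higher in KO polysomes (log2 change 1.48, SE 0.38, adjusted p = 0.0437 from limma, called in 5 of 14 alternatives).

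Of 12 general histone chaperones tested, 3 were called higher and 0 lower in KO RNP, and 1 was called higher in KO polysomes, with median changes of 0.006 and 0.50. *Ptma*, which encodes the acidic protein prothymosin alpha, had log2 changes of 1.16 in polysomes (SE 0.20, adjusted p = 0.0105 from limma) and 0.89 in RNP (SE 0.26, adjusted p = 0.0408 from limma), called in 13 and in 5 of 14 alternatives. *Nap1l4*, a chaperone of H2A and H2B, rose by 0.67 in RNP (SE 0.11, adjusted p = 0.00277 from limma), and *Npm2*, the nucleoplasmin gene of oocytes, by 0.52 (SE 0.13, adjusted p = 0.0189 from limma, called in 11 of 14 alternatives).

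All 7 factors for the 3′ end of stem-loop histone mRNAs were tested, and 1 rose and 1 fell in each pool, with median changes of -0.19 in RNP and -0.31 in polysomes. *Zfp473*, a zinc-finger protein of the U7 complex, rose by 1.53 in polysomes (SE 0.31, adjusted p = 0.0189 from limma) and by 0.99 in RNP (SE 0.28, adjusted p = 0.0353 from limma), called in 12 and in 6 of 14 alternatives. *Eri1*, an exonuclease that binds the stem-loop, fell by 1.95 in polysomes (SE 0.49, adjusted p = 0.0409 from limma) and by 1.17 in RNP (SE 0.31, adjusted p = 0.0261 from limma). The calls of *Eri1* were kept in 5 of 14 alternatives in polysomes and in 9 of 14 in RNP. *Slbp*, the stem-loop binding protein itself, was at 478, 530 and 495 FPKM in WT RNP and at 431, 453 and 436 in KO RNP and was not called (log2 change -0.19, SE 0.07, adjusted p = 0.110 from limma).

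**Figure D5:**
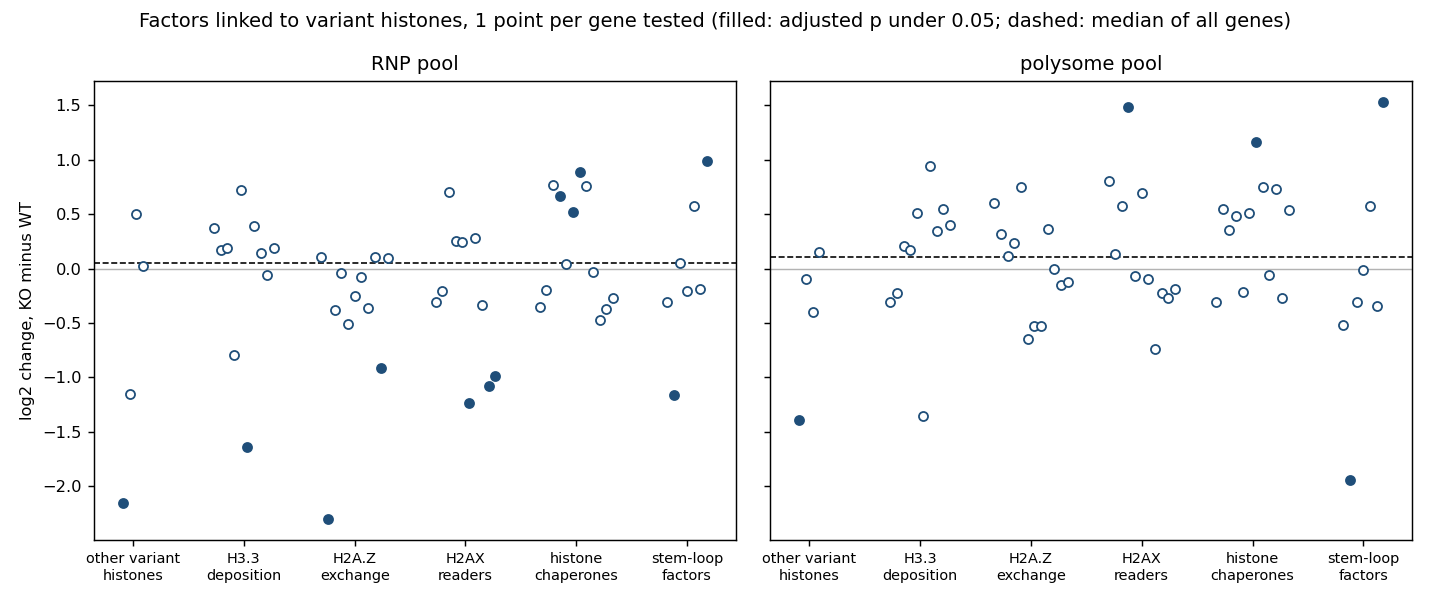
Log2 change of FPKM + 1, KO minus WT, of each tested gene in 6 lists of factors linked to variant histones, in the RNP and polysome pools; filled symbols mark an adjusted p under 0.05 and dashed lines the median of all genes tested. *Anp32e* at -2.30 is the lowest point in RNP and *Eri1* at -1.95 the lowest in polysomes.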

How the data were processed

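The data were 12 RNA-seq libraries of light (RNP) and heavy (polysome) gradient pools from WT or *Lsm14b*-KO GV oocytes, grouped by their sample labels. cDNA was made with random primers and amplified by the Smart-seq2 procedure. The authors aligned reads to mm10 by TopHat2 2.0.13, and Cufflinks 2.2.1 gave the deposited FPKM of each gene symbol, which holds no read counts. The deposited table also holds log2 changes of the authors' Cuffdiff comparisons, with deposited p-values and q-values, none of which were used here.

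Members and lists were chosen with earlier results of these data known. Fits used limma 3.58.1 (R 4.3.3) on log2(FPKM + 1), with an intensity trend and no block, on genes that reached 1 FPKM in 3 or more of the compared libraries. Benjamini-Hochberg adjustment ran over all genes tested, at a threshold of 0.05. Each member was also compared by an exact two-sided permutation test, which cannot go below 0.1 with 3 libraries against 3. All 8 members passed the filter in all 5 comparisons. Alternatives were pseudocounts of 0.1 and 5, no filter, a filter at 5 FPKM, rescaling to the same median, quantile normalization, no trend, the replicate number as a block and each library left out. Those for the listed factors were chosen after seeing the data. At most 3 called genes per list, with the largest change and a mean of at least 5 FPKM, were named. *Inha*, the other granulosa markers named for RNP or polysomes, *H2afj* and *Slbp* fall outside this rule. They were named after their values were seen, as were *Mir300* and the overlapping genes.

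Depth was estimated by taking the annotated transcript length less 200 bases as the effective length. Positions and coding sequences came from GENCODE M21 and near-identical copies from BLAST 2.17.0, and the fits were tested on simulated data. Other steps used Python 3.11.15 with pandas 2.3.3, numpy 2.4.6, scipy 1.17.1 and matplotlib 3.10.9.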

Additional observations from a re-analysis of the deposited data

Results flagged for a closer look

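The genotype effect on *Rnf8* differed between the pools. The transcript fell by 1.08 on the log2 scale in KO RNP and by 0.27 in KO polysomes, and the interaction of genotype and pool was 0.80 (SE 0.15, adjusted p = 0.0490 from limma, 12 libraries). The interaction was called in 4 of 21 alternatives and in 1 of the 12 that left out a library (without WT polysome replicate 2), with adjusted p between 0.0319 and 0.308 and changes from 0.75 to 0.88 in those 12. With pools paired within genotype by replicate number, 0 genes were called, so the *Rnf8* interaction was not called there. All 8 histone variants had interactions that were not called.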

How the results depend on the processing

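Of 608 alternative values of single members, 553 kept their direction and their side of the threshold, 35 lost a call, 7 gained one and 13 changed sign, all 13 from values that were not called. In RNP the number of members called, 7, became 3 without a filter, 4 after rescaling to the same median, 4 without an intensity trend and 3 to 5 with each library left out. In polysomes the number, 1, became 3 after quantile normalization and 1 to 2 with each library left out (2 without WT replicate 2). For the WT pools it was 1 without an intensity trend. The sign changes were in *H3f3a* in polysomes (0.005 after rescaling, -0.083 to 0.058 with libraries left out), *H2afy* in polysomes (-0.14 to 0.89), *H1foo* in the WT pools (-0.020 after quantile normalization) and in the ratio (-0.006 to 0.093), *H1f0* in the ratio (0.000 with a pseudocount of 5, -1.05 to 0.53) and *H2afz* in the KO pools (-0.10 to 0.62). For the listed factors that were named, alternatives were counted only where the main fit had called the gene. Of these 245 values, 77 lost the call and 0 changed sign. Comparisons not called in the main fit were left out of that count. Signs did change among them, as for *Yeats4* in polysomes (-0.46 to 0.05 with libraries left out). The cause of these moves was not tested.

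Same-numbered libraries did not deviate together (r from -0.0242 to 0.0156 over 12 pairs). Such values cannot show that RNP and polysome pools from the same gradient vary independently. The replicate number was taken as a name and left out of the main fits. With it as a block, 2 members were called in polysomes (*H2afz* gained, adjusted p = 0.0486 from limma), 5 in RNP, 4 in the KO pools (*H1f0* gained), and the count in the WT pools and the ratio did not move. Over all genes the block gave 672 calls in polysomes, where 989 were called without it, and 11 in the ratio in place of 26. With pools paired within genotype the ratio had 0 calls, with 1129 genes at an unadjusted p under 0.05.

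Call counts over all genes ranged from 383 to 790 in polysomes, 1255 to 1911 in RNP, 0 to 46 in the ratio, 780 to 1212 in the WT pools and 2030 to 2909 in the KO pools with each library left out, and from 508 to 1054, 1511 to 2173, 0 to 38, 728 to 1504 and 2347 to 2968 under the other settings. In polysomes 538 genes were higher and 451 lower, and without KO replicate 3 the split was 136 to 247. In RNP it was 1044 to 1013, and 1239 to 934 after rescaling. A filter at 5 FPKM left 8 values of weak members untested. Depth limits *H2afz*, *H2afv* and *H2afy*, which rest on few fragments per library, and 3 libraries a group limit all p-values.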
